A study of Mus musculus with 36 samples.

Results

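The genes described are 8 of the MHC class II antigen presentation pathway: H2-Aa, H2-Ab1 and H2-Eb1, which encode chains of the class II molecules, Cd74, H2-DMa, H2-DMb1 and H2-DMb2, whose products handle their loading, and Ciita, their transcriptional regulator. They were chosen by gene symbol, with earlier results of these arrays known, and H2-DMa was singled out because its values in these arrays stood apart. Its levels and differences are therefore given as a description, with no test. The 8 genes are read by 12 probes, 4 for H2-Ab1, 2 for Cd74 and 1 for each of the others, out of 25697 probes on the array. All 12 were among the 10961 probes kept because they were detected, at a detection p under 0.01, on at least 4 of the 36 arrays, and no member was lost to that filter. The members passed on 27 to 36 arrays each, H2-DMb2 on 27, Ciita on 32, H2-DMb1 on 35 and the rest on all 36.

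The study measured RNA of mouse T cells on Illumina bead arrays in 9 groups of 4. The groups are 3 genotypes of Malt1, a signalling scaffold and protease (paracaspase) of antigen receptor pathways, without stimulation (0 h) and after 1 h and 4 h of stimulation. The genotypes are Malt1+/- (het, 1 null allele), Malt1PM/- (PM, an allele with a point mutation over a null allele; the series title concerns the paracaspase activity) and Malt1-/- (KO). Every animal thus carries at least 1 null allele, the groups hold no Malt1+/+ cells, and the strain given for all 36 arrays is B6.C-Tg(CMV-cre)1Cgn/J, a Cre line whose transgene has the broadly active CMV promoter. Neither the ages of the animals nor any pooling is given. The labels describe total T cells from which B220+ and CD11b+ cells were removed with beads, and also CD4+ kits, and stimulation either with PMA and ionomycin or with antibodies to CD3 and CD28. Which of these was used for the arrays is not stated. The labels tag the 4 arrays of every group E3, E4, E5 and E6, called replicates 1 to 4 here. They do not say what a tag marks, whereas the design text speaks of 3 biological replicates. Where the 4 do not come from separate animals, p-values measure only the spread between these samples.

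MHC class II molecules are pairs of an alpha and a beta chain that show peptides from endocytosed proteins to CD4+ T cells. The invariant chain, encoded by Cd74, fills the groove of a new molecule until proteases cut it to a short peptide, and H2-DM, a pair of H2-DMa with H2-DMb1 or H2-DMb2, then removes that peptide and lets others bind. CIITA switches these genes on together, by joining a complex of RFX, CREB and NF-Y proteins on the X and Y boxes of their promoters. In mice, B cells, dendritic cells and macrophages make class II molecules all the time, whereas mouse T cells are known to make little or none, so class II RNA in a T cell preparation is usually read beside markers of those other cells.

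The stretches of promoter that hold those box letters are shown because they show where those letters lie in H2-DMb1, H2-DMb2 and H2-Eb1, with H2-Aa beside them. The sequences are RefSeq's, from windows of 300 bases around listed transcript starts in build GRCm38.p6, written 5′ to 3′ on the gene's strand. The windows of H2-DMa and H2-DMb2 lie inside the gene's annotated span and not at its outermost start. Windows were matched by symbol for 5 of the 8 members. Capitals mark the letters found: AACNNNTGA, in the position of an X box, and ATTGG, of a Y box.

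H2-DMb1, chr17:34153091-34153142, plus strand: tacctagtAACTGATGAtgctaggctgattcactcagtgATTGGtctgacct
H2-DMb2, chr17:34145120-34145171, plus strand: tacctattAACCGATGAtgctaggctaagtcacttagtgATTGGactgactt
H2-Eb1, chr17:34305770-34305820, plus strand: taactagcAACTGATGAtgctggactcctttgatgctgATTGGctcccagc
H2-Aa, chr17:34287859-34287921, minus strand: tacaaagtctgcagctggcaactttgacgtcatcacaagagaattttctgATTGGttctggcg

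The letters were picked after reading these promoters, and both strands were searched. AACNNNTGA followed on the same strand within 30 bases by ATTGG, without overlap, was found in the windows of H2-DMb1, H2-DMb2 and H2-Eb1, and in 124 of all 32851 windows, or 0.377%. The H2-Aa window held ATTGG alone, which 37.4% of all windows hold, and AACNNNTGA by itself was in 11.9%. H2-DMa has 2 such windows, of which the first held neither pattern and the second held ATTGG once, which says nothing of its outermost start. A match is a description of letters and not a binding site, and its absence says only that these letters are not in this window. Among the other genes of the pathway listed for this work, the window of H2-Ob also held both patterns.

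Between 7713 and 10291 probes were detected per array. Malt1 was at 6.08 ± 0.35, 6.75 ± 0.40 and 7.29 ± 0.26 at 0, 1 and 4 h in het (SD, n = 4; normalized log2 intensity, the scale of all levels here). It was at 5.21 ± 0.37, 5.61 ± 0.43 and 6.10 ± 0.33 in PM and at 4.79 ± 0.29, 4.66 ± 0.16 and 5.82 ± 0.32 in KO, so KO at 4 h had a higher mean than PM at 0 and 1 h. Whether its probe lies in the part removed from the null allele is not given in the sources used here, so these levels check the labels only in part. T cell markers were present throughout. Of 17 listed, 14 were measured, among them Cd3d, Cd3e, Cd3g and Cd8b1 on all 36 arrays, Cd4 on 30, and Cd8a on none. Markers of B cells were also present although the labels describe removal of B220+ cells: of 23 listed, 14 were measured, including Cd79a, Cd79b and Fcrla on all 36 arrays. Pax5 and Ebf1 were detected on 0 arrays. The mean level over those 14 B cell markers ranged over the arrays from 6.17 to 7.59 in het, 6.06 to 7.33 in PM and 5.99 to 7.18 in KO at 0 h. Of 24 markers of dendritic and myeloid cells, 13 were measured, with Lyz1, S100a8, S100a9 and Cst3 on all 36 arrays and Itgax, Itgam, Flt3, Xcr1 and Clec9a on 0. The mean of those 13 ranged from 7.28 to 7.51 in het, 6.76 to 7.33 in PM and 7.26 to 7.43 in KO at 0 h. In such bulk RNA, fewer cells of a type and less RNA per cell cannot be told apart.

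A pair of features of the arrays bear on the members and come before the results. On the PM arrays of replicate 4, H2-Ab1 probe ILMN_2631423 read 6.0, 6.41 and 8.44 at 0, 1 and 4 h, against 9.47 to 10.63 on the other PM arrays at 0 and 1 h. The other 3 H2-Ab1 probes were higher on PM replicate 4 than on the remaining PM arrays at each time. Their unnormalized intensities at 0 h were 2971, 1519 and 1116, against 133 for ILMN_2631423. H2-DMb2 fell out in the same way, at 4.41, 4.83 and 4.45, and was not detected there (detection p 0.20, 0.029 and 0.17). Over all probes kept, 93 lay more than 2 log2 units below the other 3 PM arrays of the same time on replicate 4 at both 0 and 1 h, and 0 lay that far above. Of the 93, 87 were also the lowest by over 1 log2 unit on the KO 1 h array of replicate 4, and 1 on the het 0 h array. The cause was not tested, and where replicate 4 decides a value of H2-DMb2 or of that probe, the value without it is given as well. The second feature is that arrays of the same replicate number deviated together: replicate 2 was the lowest of the 4 for H2-Eb1 and for the brightest probes of H2-Ab1 and Cd74 in all 9 groups.

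**Figure D1:**
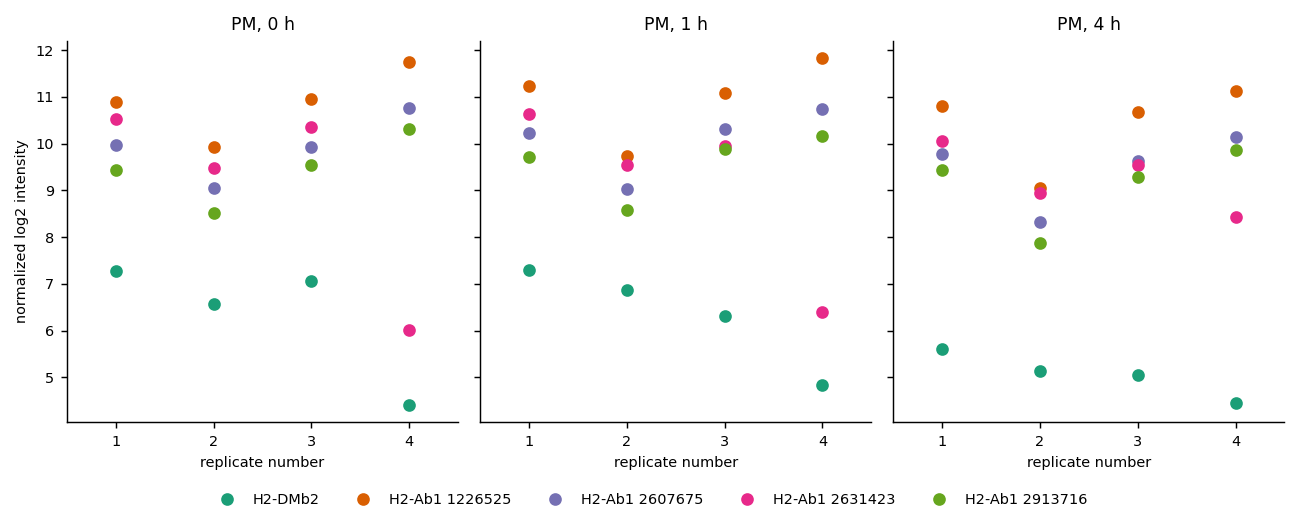
Normalized log2 intensity (y axis) of the 4 H2-Ab1 probes and of H2-DMb2 on each PM array, by replicate number (x axis), at 0, 1 and 4 h, with 1 point per array. On replicate 4 at 0 and 1 h, ILMN_2631423 (6.0 and 6.41) and H2-DMb2 (4.41 and 4.83) lie below all other PM arrays, while the other 3 H2-Ab1 probes lie above them.

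Ciita, the regulator, was lower after stimulation in each genotype. In het its level in replicates 1 to 4 was 6.60, 5.85, 7.01 and 6.83 at 0 h, 5.06, 5.83, 6.32 and 5.94 at 1 h, and 5.11, 4.38, 5.60 and 4.83 at 4 h. All 4 het arrays at 4 h lay below the lowest at 0 h, and 2 of these 4 were not detected. The change at 1 h was −0.79 (SE 0.26; limma, adjusted p = 0.026) and at 4 h −1.59 (SE 0.26; limma, adjusted p = 5.6e-06). In PM the level was 6.84, 6.09, 6.96 and 6.40 at 0 h, 5.75, 5.92, 5.81 and 5.89 at 1 h, and 5.39, 4.79, 5.06 and 5.34 at 4 h, all 4 arrays being detected at each time. Neither later group overlapped the 0 h group. The change was −0.73 (SE 0.26; limma, adjusted p = 0.046) at 1 h and −1.43 (SE 0.26; limma, adjusted p = 3.4e-05) at 4 h. In KO the level was 5.89, 5.70, 5.98 and 6.15 at 0 h, 5.40, 5.87, 5.45 and 5.58 at 1 h, and 5.14, 4.32, 4.69 and 5.35 at 4 h. The KO change was −0.35 at 1 h (limma, adjusted p = 0.37) and −1.05 at 4 h (SE 0.26; limma, adjusted p = 0.0015). With the replicate number as a block both 1 h calls held (limma, adjusted p = 0.0084 in het and 0.016 in PM). Both were lost with other settings: the het call with median scaling, without the filter on dim probes, with array weights, with replicates 1 to 3 only and in a fit of the compared groups alone, the PM call with the authors' table, with median scaling, without the filter and with replicates 1 to 3 only.

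At 1 h Ciita was the only member probe past the threshold (adjusted p under 0.05 over all 10961 probes) in het and PM, 1 of the 11 probes of members other than H2-DMa in each, and 0 of 11 passed in KO. Of all probes, 24.7% passed in het, 20.4% in PM and 24.6% in KO, so the members' share was below that of the array. At an unadjusted p under 0.05, 0 of 11 passed in KO at 1 h, against 3799 of all probes. The other 10 probes differed by −0.18 to 0.30 at 1 h in het.

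At 4 h, 5 of the 11 probes passed in het (51.3% of all probes did), 3 in PM (46.7%) and 3 in KO (41.8%), each of them lower than at 0 h and none higher. These shares are near or below those of the array, where calls were split almost evenly between the directions (2816 higher and 2810 lower in het). The median difference over the 11 probes was −1.13 in het, −0.55 in PM and −0.73 in KO, while the median over all probes was 0.01, 0.00 and 0.01. H2-DMb1, H2-DMb2 and Ciita passed in all 3 genotypes, and both Cd74 probes in het. The size of the fall of these dim probes depends on the background step: without it, H2-DMb1 differed by −0.72, −0.55 and −0.58 in het, PM and KO, H2-DMb2 by −0.65, −0.50 and −0.44 and Ciita by −0.54, −0.50 and −0.30, each still past the threshold.

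H2-DMb1, a beta chain of H2-DM, read 6.77, 6.24, 7.79 and 7.43 in het at 0 h and 5.33, 4.69, 5.58 and 5.63 at 4 h. All 4 arrays at 4 h lay below the lowest at 0 h, and the difference was −1.75 (SE 0.43; limma, adjusted p = 0.00086). In PM it read 6.83, 6.41, 7.35 and 7.90 at 0 h and 5.98, 4.95, 5.92 and 6.69 at 4 h, where the highest array at 4 h reached into the 0 h range (−1.24, SE 0.43; limma, adjusted p = 0.017). In KO it read 6.71, 6.14, 7.07 and 7.50 at 0 h and 5.41, 4.71, 5.49 and 5.92 at 4 h, again without overlap (−1.47, SE 0.43; limma, adjusted p = 0.0056). Within a replicate number the H2-DMb1 change was negative in each of the 12 pairs, between −2.20 and −0.85. Without PM 0 h replicate 4 the PM change was −0.98 and without PM 4 h replicate 2 −0.93 (limma, adjusted p = 0.076 and 0.092). At 1 h no decrease was seen, the differences being 0.12, 0.28 and 0.29 in het, PM and KO.

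H2-DMb2, the second beta chain, read 7.02, 6.38, 7.14 and 6.30 in het at 0 h and 5.10, 4.58, 5.33 and 4.28 at 4 h, without overlap (−1.89, SE 0.50; limma, adjusted p = 0.0018; −1.85 with replicates 1 to 3 only). In PM the levels were 7.28, 6.58, 7.07 and 4.41 at 0 h and 5.62, 5.14, 5.06 and 4.45 at 4 h (−1.27, SE 0.50; limma, adjusted p = 0.035), the overlap being due to replicate 4. With replicates 1 to 3 only, the PM difference was −1.71 (limma, adjusted p = 3.6e-05). In KO the levels were 6.46, 6.14, 6.11 and 6.18 at 0 h and 5.31, 4.63, 4.65 and 4.27 at 4 h (−1.50, SE 0.50; limma, adjusted p = 0.014), or −1.37 with replicates 1 to 3 only (limma, adjusted p = 0.00054). The fall brought the probe to the limit of detection, with 2 of 4 arrays detected at 4 h in het, 3 in PM and 1 in KO. The PM call was lost on leaving out PM 0 h replicate 1, 2 or 3 or PM 4 h replicate 2, 3 or 4 (differences of −1.30 to −0.96, limma adjusted p = 0.053 to 0.14), with median scaling, without the filter and in a fit of the compared groups alone (limma, adjusted p = 0.062, 0.088 and 0.11), and the KO call with median scaling (limma, adjusted p = 0.075). H2-DMb1 and H2-DMb2 are near-identical neighbours, and whether their probes tell the transcripts apart was not tested because the probe sequences were not used here.

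Cd74, the invariant chain, fell in het. By its brighter probe, ILMN_1221817, het arrays read 11.41, 10.78, 12.30 and 11.68 at 0 h and 10.22, 9.11, 11.37 and 10.43 at 4 h. The 2 groups overlapped through the spread between replicates, but the change was negative within each replicate number, and the difference was −1.26 (SE 0.48; limma, adjusted p = 0.027). The second probe, ILMN_3089584, gave −1.25 (SE 0.44; limma, adjusted p = 0.017). In PM the 2 probes gave −0.87 and −0.69, and in KO −0.93 and −0.93, with limma adjusted p between 0.087 and 0.21, and the change was negative within each replicate number in both genotypes. The het call of ILMN_1221817 was lost on leaving out het 0 h replicate 3 or 4 or het 4 h replicate 1 or 2 (differences −1.24 to −0.87, limma adjusted p = 0.051 to 0.15), and that of ILMN_3089584 on leaving out het 0 h replicate 3 or het 4 h replicate 2 (limma, adjusted p = 0.060 and 0.11). Both were lost with array weights (−0.81 and −0.83; limma, adjusted p = 0.11 and 0.069), and that of ILMN_1221817 with median scaling, without the filter and with replicates 1 to 3 only (limma, adjusted p = 0.053, 0.071 and 0.054).

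No probe of the chain genes passed. H2-Eb1, a beta chain, read 10.48, 9.47, 11.23 and 10.79 in het at 0 h and 9.36, 8.19, 10.82 and 10.33 at 4 h. Its differences were −0.82 in het, −0.55 in PM and −0.61 in KO (SE 0.59; limma, adjusted p = 0.25, 0.47 and 0.44). Leaving out single arrays gave −1.20 to −0.32, −0.90 to −0.11 and −0.97 to −0.085, the smallest falls being those without the 4 h array of replicate 2. Within replicate numbers the H2-Eb1 change was −1.28 to −0.41 in het, −0.85 to −0.30 in PM and −1.25 to 0.07 in KO. The brightest H2-Ab1 probe, ILMN_1226525, for another beta chain, read 10.89, 9.99, 11.69 and 11.33 in het at 0 h and 9.97, 8.68, 10.91 and 10.47 at 4 h. In both genes the replicates kept their order between the times, replicate 2 being lowest and replicate 3 highest. The 4 H2-Ab1 probes gave −1.13 to −0.80 in het, −0.47 to 0.16 in PM and −0.73 to −0.35 in KO, with limma adjusted p from 0.15 to 0.88. The one positive value, 0.16, belongs to ILMN_2631423 and was −0.60 with replicates 1 to 3 only (limma, adjusted p = 0.26). The same probe gave −0.97 in het and −0.61 in KO with those replicates. H2-Aa, the alpha chain, read 7.76, 7.57, 9.29 and 8.49 in het at 0 h and 7.23, 6.96, 8.97 and 8.47 at 4 h. Its differences were −0.37, −0.53 and −0.34 in het, PM and KO (SE 0.52; limma, adjusted p = 0.59, 0.44 and 0.65), and leaving out single arrays gave −0.72 to −0.030, −0.89 to −0.12 and −0.66 to 0.14.

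Because same-numbered arrays deviated together, the number was also fitted as a block. In the comparison of het at 4 h with 0 h, whose same-numbered arrays correlated at 0.24 to 0.66 after removal of group means, 9 of the 11 probes then passed, all lower, beside 60.1% of all probes. Those added were H2-Eb1 (−0.82, SE 0.22; limma, adjusted p = 0.0021) and the H2-Ab1 probes ILMN_1226525, ILMN_2607675 and ILMN_2913716 (−0.97, −0.90 and −0.80; limma, adjusted p = 0.00012, 0.00021 and 0.00093). H2-Aa (limma, adjusted p = 0.29) and ILMN_2631423 (limma, adjusted p = 0.065) still did not pass in het. With the block 8 of the 11 probes passed in PM and 8 in KO at 4 h, all lower, beside 55.3% and 50.9% of all probes. H2-Eb1, H2-Ab1 ILMN_1226525 and both Cd74 probes were among those added in each. Same-numbered arrays at 0 and 4 h correlated at 0.098 to 0.73 in PM and −0.05 to 0.60 in KO.

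**Figure D2:**
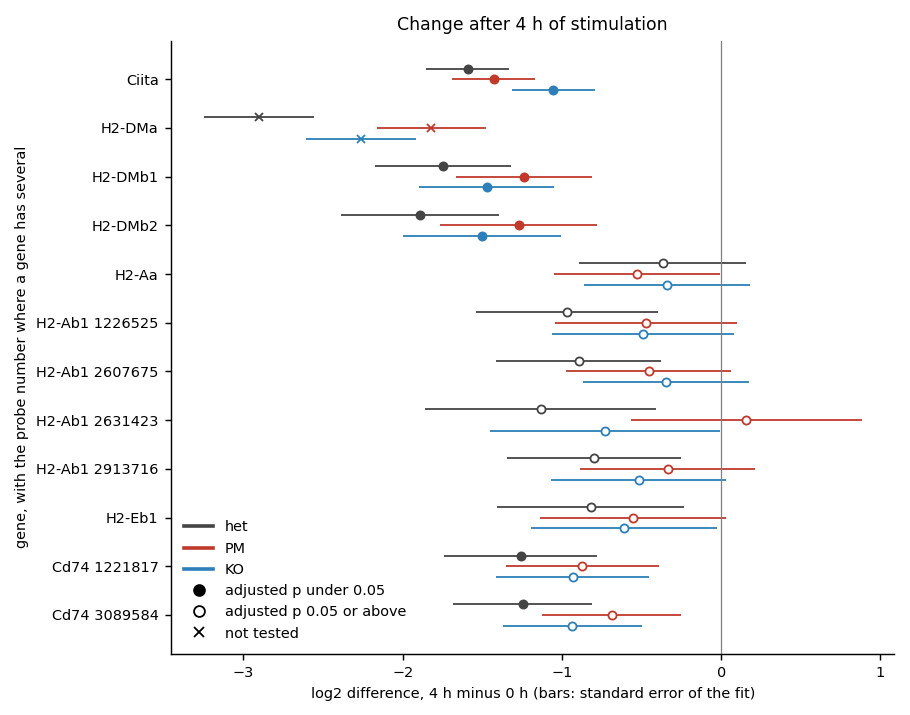
Log2 difference between 4 h and 0 h (x axis; bars, standard error of the fit) for each member probe (y axis) in het, PM and KO. Filled points passed the threshold, open points did not, and crosses mark H2-DMa, which was not tested. H2-DMa lies farthest left in each genotype (−2.90, −1.82 and −2.26), and H2-Aa lies between −0.53 and −0.34.

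B cell markers were lower at 4 h as well. Of the 14 measured, 7 fell in het and 0 rose, 8 fell in PM and 0 rose, and 8 fell and 1 rose in KO, with medians of −1.31, −1.31 and −1.20. All these counts of markers stand beside the 51.3%, 46.7% and 41.8% of all probes that passed at 4 h. Cd79b, a signalling chain of the B cell receptor, changed by −2.78, −2.24 and −2.18 in het, PM and KO (limma, adjusted p = 1.5e-06, 4.8e-05 and 8.4e-05). Pou2af1, a B cell coactivator, was the one that rose, in KO (1.35; limma, adjusted p = 0.0020). The mean over the 14 ranged from 5.17 to 5.97 in het, 5.15 to 5.86 in PM and 5.11 to 6.03 in KO at 4 h, below the range at 0 h in het and PM and just reaching into it in KO. Of the 13 dendritic and myeloid markers, 9 fell and 1, Zbtb46, rose in each genotype. Lyz2, a lysozyme of myeloid cells, changed by −3.81, −3.32 and −3.73 (limma, adjusted p = 6.6e-05, 0.00042 and 0.00013). A Lyz2 probe is among the 93 that were low on PM replicate 4 at 0 and 1 h, and no value without that replicate is given. The means over the 13 ranged from 5.51 to 6.13, 5.47 to 6.17 and 5.60 to 6.34. At 1 h, 0 of the 14 B cell markers passed in any genotype, and 3, 3 and 6 of the 13 myeloid markers were lower in het, PM and KO, beside 24.7%, 20.4% and 24.6% of all probes. T cell markers fell too, 8 of 14 in het, 8 in PM and 7 in KO, with 3, 4 and 5 that rose, again beside 51.3%, 46.7% and 41.8%. The part of these cells in the fall of the class II genes was not tested.

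Between genotypes none of the 11 probes passed at any time, and H2-DMa is set out apart below. At 0 h, 0.0730% of all probes passed in PM against het, 0.0365% in KO against het and 0.0547% in PM against KO. At 1 h the shares were 0.146%, 0.0365% and 0.0182%. At 4 h they were 2.14%, 7.37% and 2.10%. At an unadjusted p under 0.05, 1 of the 11 passed in KO against het at 0 h (169 of all probes), 1 in PM against KO at 0 h (345), and 0 in each of the other 7 comparisons (235 to 2074). In both comparisons at 0 h that probe was Ciita, at −0.65 in KO against het and 0.64 in PM against KO, with limma adjusted p of 1.0. KO less het was −0.65 to −0.11 over the 11 probes at 0 h, with overlapping arrays for each. With the replicate block, H2-DMb1 passed in PM against het at 4 h (0.58, SE 0.17; limma, adjusted p = 0.049), beside 4.08% of all probes. The same-numbered arrays of those groups correlated at 0.29 to 0.77.

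Differences of response between genotypes were tested as interaction terms. For the 1 h response, 0% of all probes passed in each of the 3 pairs of genotypes, with 84, 78 and 95 at an unadjusted p under 0.05 and 0 of the 11 member probes. For the 4 h response, 0.119% of all probes passed for PM against het, 1.51% for KO against het and 0.201% for PM against KO. None of the 11 member probes passed, nor did any at an unadjusted p under 0.05 (529, 1091 and 521 of all probes). Their median difference in the 4 h response was 0.46, 0.33 and 0.06 log2 units.

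H2-DMa, the alpha chain shared by both forms of H2-DM, was lower at 4 h in each genotype, as H2-DMb1, H2-DMb2 and Ciita were. In het its 4 arrays read 9.67, 9.15, 10.33 and 10.12 at 0 h, 8.87, 8.99, 10.01 and 9.75 at 1 h, and 7.10, 5.93, 7.29 and 7.36 at 4 h. In PM they read 11.15, 10.97, 11.53 and 10.98 at 0 h, 10.41, 10.67, 10.77 and 10.51 at 1 h, and 10.11, 8.55, 8.88 and 9.81 at 4 h. In KO they read 10.20, 9.14, 9.95 and 10.34 at 0 h, 9.25, 9.40, 9.59 and 9.86 at 1 h, and 7.81, 6.87, 7.69 and 8.22 at 4 h. Within each genotype all arrays at 4 h lay below all arrays at 0 h, and at each time all 4 PM arrays lay above all het and all KO arrays. The het and KO arrays overlapped at all 3 times.

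The order of the 9 group means of H2-DMa, from the highest, was PM at 0 h (11.16 ± 0.26, SD, n = 4), PM at 1 h (10.59 ± 0.16), KO at 0 h (9.91 ± 0.53), het at 0 h (9.82 ± 0.52), KO at 1 h (9.53 ± 0.26), het at 1 h (9.41 ± 0.56), PM at 4 h (9.34 ± 0.74), KO at 4 h (7.65 ± 0.57) and het at 4 h (6.92 ± 0.67). From KO at 0 h down to PM at 4 h, each mean differed from the next by less than the larger SD of the pair. The change at 4 h was −2.90 in het, −1.82 in PM and −2.26 in KO (SE 0.34), or 7.48, 3.53 and 4.79 times lower. In het and KO it varied little between replicate numbers (−3.23 to −2.58 and −2.39 to −2.11). In PM it was −1.04 and −1.16 in replicates 1 and 4 and −2.42 and −2.65 in replicates 2 and 3.

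Set beside the mean of H2-Aa, H2-Ab1, H2-Eb1 and Cd74 (brightest probe of each), H2-DMa fell by more in every replicate number of every genotype. The change of that mean at 4 h was −0.85 in het, −0.61 in PM and −0.59 in KO, and the change of H2-DMa less that of the mean was −2.05 ± 0.33 (SD over 4 replicate numbers), −1.21 ± 0.84 and −1.67 ± 0.51. The smallest of the 12 was −0.48, in PM replicate 4, and the largest −2.44, in het replicate 3. Against H2-DMb1, H2-DMb2 and Ciita, H2-DMa did not always fall by more at 4 h. In PM replicate 1, H2-DMb2 (−1.67) and Ciita (−1.45) fell by more than H2-DMa (−1.04). In PM replicate 4, H2-DMb1 (−1.21) fell by more than H2-DMa (−1.16). In every other such pair H2-DMa fell by more. At 1 h H2-DMa already differed from 0 h by −0.41, −0.57 and −0.38 in het, PM and KO, while the mean of the 4 genes differed by 0.08, 0.05 and 0.15. Ciita differed by −0.79, −0.73 and −0.35 at that time.

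**Figure D3:**
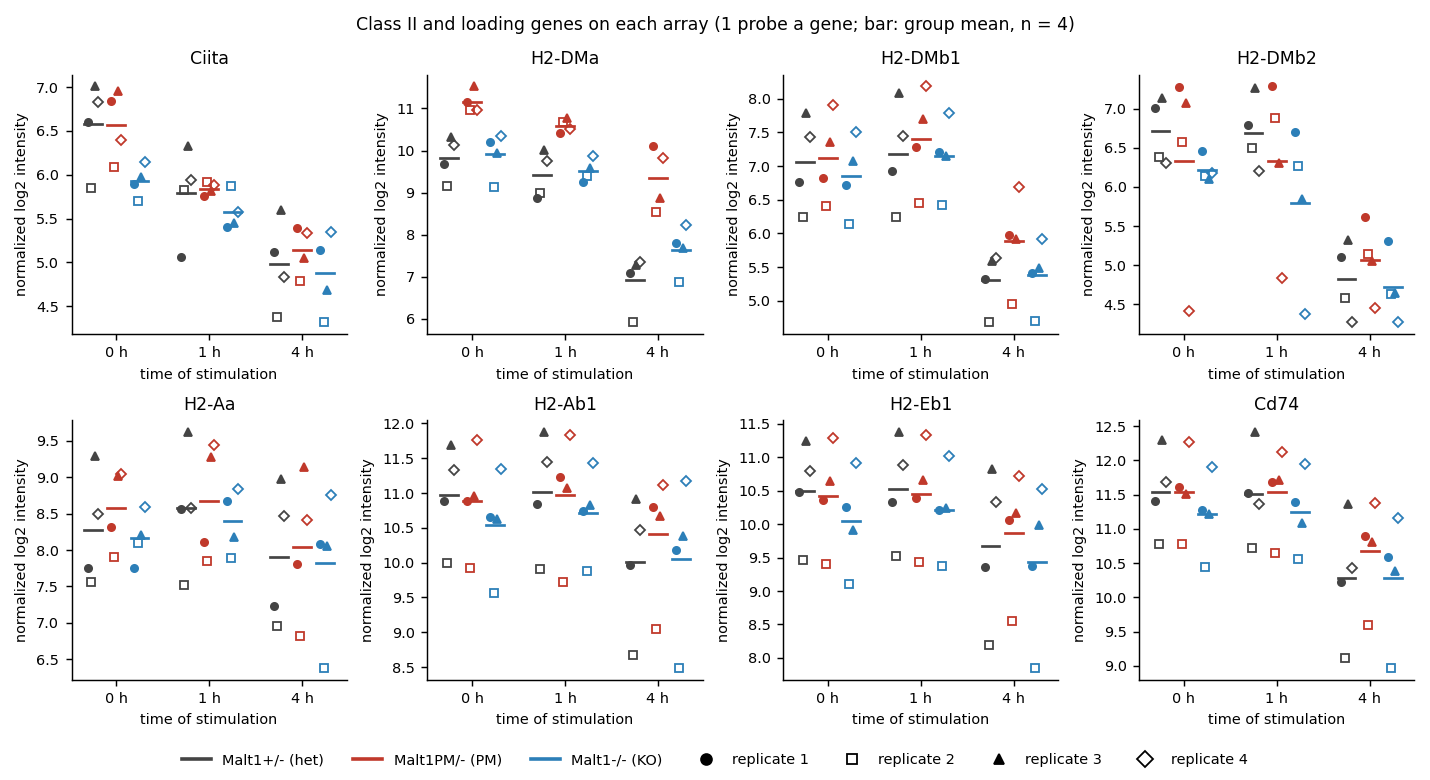
Normalized log2 intensity (y axis) of each of the 8 genes, by its brightest probe, against time of stimulation (x axis), with 1 point per array, symbols for replicate numbers, colours for het, PM and KO and bars at the means of 4 arrays. The PM points of H2-DMa lie above those of het and KO at each time, while the colours overlap in the other 7 panels, and replicate 2 is low for H2-Ab1, H2-Eb1 and Cd74.

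H2-DMa also departed from the other members in the difference between genotypes. PM less het was 1.34 at 0 h, 1.18 at 1 h and 2.42 at 4 h (SE 0.34), a level 2.53, 2.27 and 5.35 times that of het. The other 11 probes differed by −1.28 to 0.30 at 0 h, −1.06 to 0.23 at 1 h and 0.01 to 0.58 at 4 h, and the het and PM arrays of each overlapped at each time. The lowest values at 0 and 1 h are those of H2-Ab1 probe ILMN_2631423, which carries the low arrays of replicate 4. Over replicates 1 to 3 alone the 11 probes ran from −0.37 to 0.21, −0.25 to 0.088 and 0.048 to 0.41, H2-DMa staying above them at 1.50, 1.32 and 2.41. Its partner in H2-DM, H2-DMb1, differed by 0.07, 0.23 and 0.58, and Ciita by 0.00, 0.05 and 0.16. PM less KO for H2-DMa was 1.25, 1.07 and 1.69, against −0.68 to 0.64 at 0 h, −0.22 to 0.53 at 1 h and 0.21 to 0.53 at 4 h for the other probes, or 0.22 to 0.78, 0.14 to 0.55 and 0.36 to 0.53 over replicates 1 to 3. KO less het for H2-DMa was small at 0 and 1 h (0.09 and 0.12, the latter −0.13 with median scaling, −0.20 with array weights and −0.06 without het 1 h replicate 1) and 0.73 at 4 h. Leaving out single arrays gave −0.13 to 0.34 at 0 h, and at 4 h 0.40 without het 4 h replicate 2 to 0.99 without KO 4 h replicate 2. By replicate number, PM less het was positive in all 12 pairs, from 0.76 to 3.02.

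**Figure D4:**
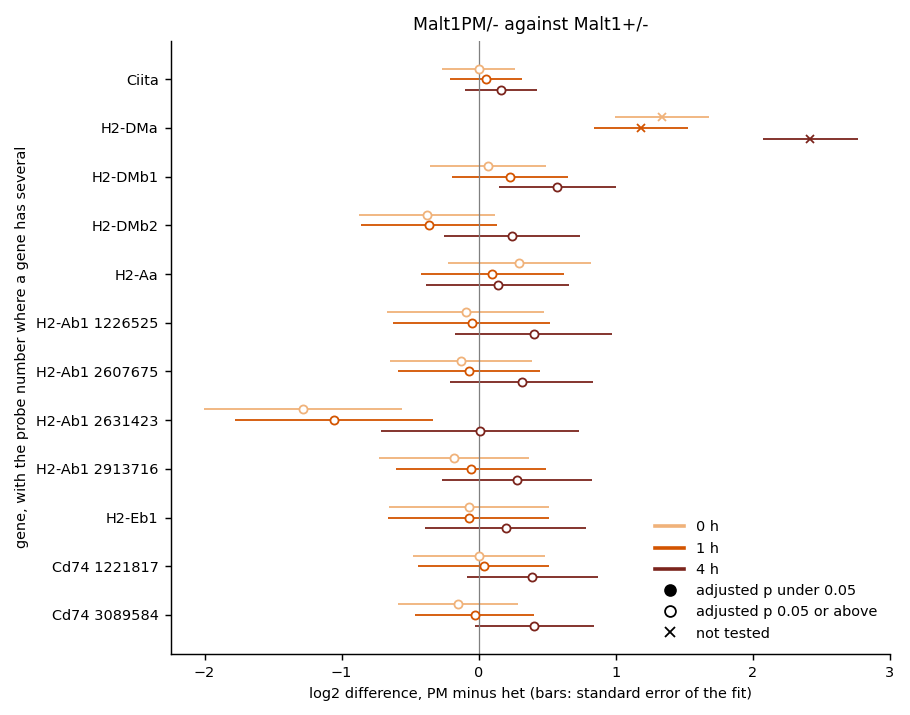
Log2 difference between PM and het (x axis; bars, standard error of the fit) for each member probe (y axis) at 0, 1 and 4 h. No tested probe passed the threshold (open points), and H2-DMa, not tested (crosses), lies at 1.34, 1.18 and 2.42, to the right of all other members.

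After group means were removed, the members' deviations on the 36 arrays were compared as a description. The arrays of 1 replicate number share their deviations, so these are not 36 independent points. Each of H2-Aa, H2-Eb1, Cd74 and the 3 H2-Ab1 probes other than ILMN_2631423 correlated with the mean of the core genes (H2-Aa, H2-Ab1, H2-Eb1 and Cd74, its own gene left out) at r = 0.87 to 0.98, and H2-DMb1 at 0.93. The mean of the 4 genes correlated with the mean of the 14 B cell markers at r = 0.90, and at 0.88 to 0.92 when the arrays of 1 replicate number were left out. Ciita correlated with the core mean less closely, at r = 0.62. H2-DMa correlated with it at r = 0.74, with Ciita at 0.79 and with the B cell markers at 0.72. Without the arrays of replicate 2 the first of these was 0.42 (n = 27) and the second 0.73. H2-DMb2 correlated with the core mean at r = −0.22, and at 0.53 without replicate 4, while its r with H2-Ab1 ILMN_2631423 was 0.90.

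**Figure D5:**
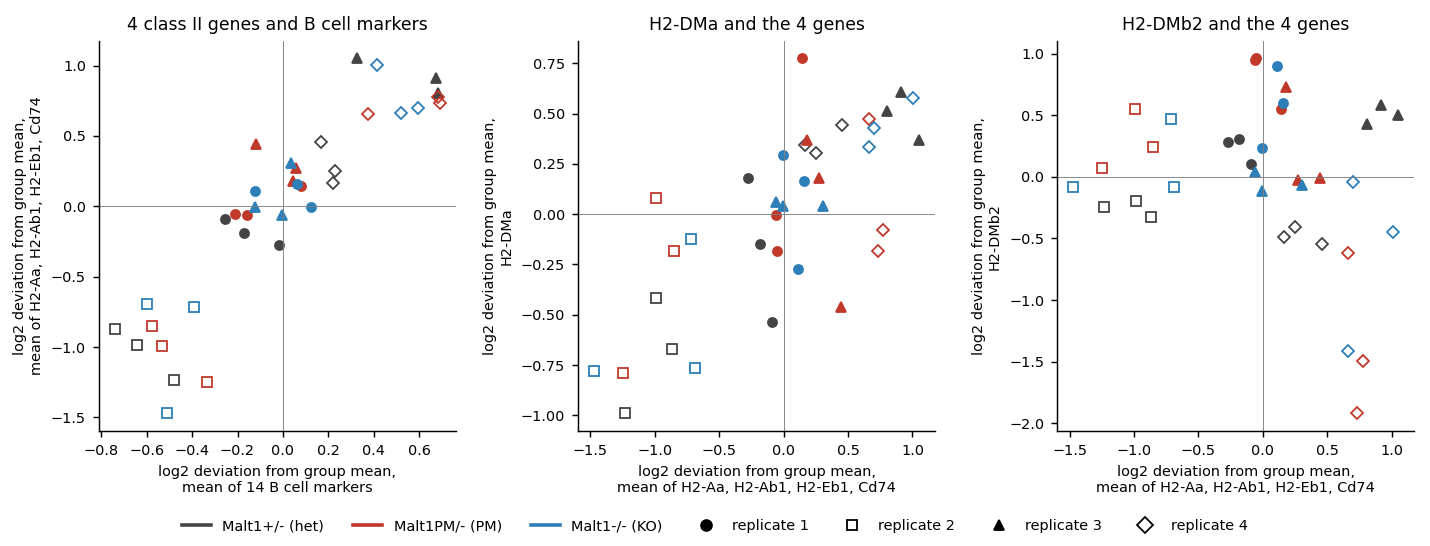
Log2 deviation of each array from its group mean: the mean of 4 class II genes against that of 14 B cell markers, H2-DMa against the 4 genes, and H2-DMb2 against the 4 genes, with 1 point per array, symbols for replicate numbers and colours for genotypes. Replicate 2 lies low on both axes of the left panel (r = 0.90) and the replicate 4 arrays of PM fall away below in the right panel (r = −0.22).

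Other genes of the class II pathway were followed from a list of 19, of which 13 were measured, while H2-Ea was detected on 0 arrays. At 4 h, 6 fell in het, 7 in PM and 7 in KO, and 0 rose, with medians of −0.35, −0.51 and −0.65, beside 51.3%, 46.7% and 41.8% of all probes. H2-Oa and H2-Ob, the chains of the H2-O protein that restrains H2-DM in B cells, fell in each genotype: H2-Oa changed by −2.32, −2.02 and −2.06 and H2-Ob by −1.72, −1.45 and −1.58 (limma, adjusted p between 2.0e-08 and 8.3e-07). Lgmn, a protease that begins the cutting of the invariant chain, changed by −2.28, −2.21 and −1.96 (limma, adjusted p = 2.5e-12, 8.5e-12 and 1.5e-10). Ctsb, a lysosomal protease, and Ifi30, a thiol reductase that unfolds antigens, fell as well, with changes of −1.80, −1.45 and −1.33 in Ctsb and −1.35, −1.12 and −1.23 in Ifi30 (limma, adjusted p between 1.1e-10 and 0.0028). Of the proteins that hold CIITA on promoters, Creb1 fell (−0.82, −0.77 and −0.74; limma, adjusted p = 0.013, 0.021 and 0.029), while Nfya, Nfyb, Nfyc and Rfxank did not pass in any genotype. Rfxap passed in PM (−0.42; limma, adjusted p = 0.036) and Ctss, a protease, in KO (−0.65; limma, adjusted p = 0.021), though neither differed between genotypes in its 4 h response past the threshold, and Rfx5 was detected on 0 arrays. Between genotypes at 4 h only Ctsb passed, in KO against het (0.66; limma, adjusted p = 0.011), beside 7.37% of all probes.

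Genes that govern Ciita through interferon gamma were followed from a list of 10, of which 8 were measured. At 4 h, 3 rose and 2 fell in each genotype, a share of the list near or above the 51.3%, 46.7% and 41.8% of all probes. Ifng rose by 2.74 in het, 3.69 in PM and 2.12 in KO (limma, adjusted p = 2.5e-08, 8.4e-11 and 3.8e-06), Jak2 by 2.12, 1.68 and 0.81, and Socs1, an inhibitor of that pathway, by 0.62, 1.14 and 0.57. Ifngr2, a receptor chain, and Irf2 fell. At 4 h Ifng was higher in PM than in het (1.21; limma, adjusted p = 0.046) and than in KO (1.98; limma, adjusted p = 0.00043). In PM against het 3 of the 8 passed, each higher, beside 2.14% of all probes. The others were Ifngr2 (0.81, limma adjusted p = 0.021) and Irf2 (0.70, limma adjusted p = 0.0051). In PM against KO 2 passed, each higher, beside 2.10%, the other being Jak2 (0.91, limma adjusted p = 0.00082). Ciita did not pass in these comparisons (0.16 and 0.27; limma, adjusted p = 1.0 and 0.95). Irf1, an activator downstream of the receptor, did not pass either (0.66 and 0.39; limma, adjusted p = 0.29 and 0.76).

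H2-DMa lies on chromosome 17 among other genes of the MHC, so 10 of its neighbours were followed, of which 9 were measured. Between PM and het 0 passed at 0 and 1 h, and 1 at 4 h, beside 0.0730%, 0.146% and 2.14% of all probes at these times. The 1 that passed was Psmb9, an immunoproteasome subunit (1.17; limma, adjusted p = 0.0045). Brd2, a neighbour that binds acetylated histones, differed by 0.10 at 4 h (limma, adjusted p = 1.0), and Psmb8, Tap1 and Tap2, which serve class I presentation, by 0.33, 0.73 and 0.83 (limma, adjusted p = 0.85, 0.39 and 0.26). After 4 h of stimulation 5 of the 9 fell in het, 4 in PM and 4 in KO, and Wdr46 rose in each (1.26, 1.13 and 1.10), beside 51.3%, 46.7% and 41.8% of all probes that passed in either direction.

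Members were left out of the rankings of likeness that follow. The genes whose levels were most like those of H2-DMa over the 36 arrays were Glipr2 (Pearson r = 0.95), Ppp3cc (0.93), Oas2 (0.89), Trim30a (0.88) and Eif4e3 (0.88). Among the members, H2-DMb1 came closest to H2-DMa (0.80). Likeness over all arrays follows both time and genotype, so a higher level in PM in genes picked this way is no separate result. In each of the 5 the mean was higher in PM than in het at each time, by 0.64, 0.74 and 1.38 in Glipr2 and 1.10, 1.09 and 1.29 in Ppp3cc, which encodes a calcineurin catalytic subunit. Oas2, an interferon-induced enzyme, differed by 0.77, 0.88 and 1.50, and its change at 4 h was −2.30 in het. Most like the mean of the 4 class II genes were Scd1 (0.92), Serpinb1a, Nkg7, Ly86 and Blk (0.86). With group means removed, the genes closest to H2-DMa were Cd79b (0.86), Hdac7, Cd40, Apobec1 and Il4i1 (0.84), and those closest to the class II mean were Blk (0.96), Fcmr, Scd1, Slc15a3 and Nkg7 (0.93). The member H2-DMb1, left out there, correlated with that mean at 0.93 as well. Of the genes named in these rankings, Blk and Cd79b are on the B cell list above, and the others are on none of the marker lists.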

How the data were processed

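Per the file headers, the authors deposited unnormalized probe intensities with detection p-values per array, and a second table of processed intensities, which has values below 0 and follows the same signals. GenomeStudio 2011.1 is named in the submitters' processing notes, and biotinylated cRNA from the Ambion MessageAmp kit in the labels' protocols. The background and scaling steps of the second table are not given in the sources used here.

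From the unnormalized intensities, limma 3.58.1 in R 4.3.3 (neqc: normexp background from the detection p-values, quantile normalization, offset 16) gave log2 levels. Of 25697 probes, 10961 with a detection p under 0.01 on at least 4 arrays were kept, and every probe was tested by itself. Probes were named from GEO's platform annotation, 23978 of them with 1 gene symbol and 0 with several. A linear model with 1 mean for each of the 9 groups (27 residual degrees of freedom) was fitted over all 36 arrays with moderated statistics (limma lmFit and eBayes), and p-values were adjusted over the 10961 probes within each of 21 comparisons (Benjamini-Hochberg). Log2 differences are compressed for dim probes by the offset, and the number of arrays limits the precision.

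The members and lists were chosen with earlier results of these data known. The genes named are the members with each of their probes and measured genes of the lists (by their brightest probe). The 5 most like H2-DMa or the mean of 4 class II genes are named as well, members being left out of that ranking. Replicate numbers 1 to 4 stand for the tags E3 to E6 of the labels, which do not say what a tag marks. Same-numbered arrays of compared groups correlated, after removal of group means, with a median r of 0.54 (−0.05 to 0.85) against −0.14 for different numbers, and all 4 pairs exceeded 0.1 in 10 of 15 comparisons. The fit with the number as a block is given where it changed a count, with the correlations of the groups compared. Alternatives were the authors' table, no background correction, median scaling, other filters, the brightest probe of a gene, array weights, fits of the compared groups alone, the replicate block, single arrays left out and, added after the data were seen, replicates 1 to 3 only.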

Additional observations from a re-analysis of the deposited data

Results flagged for a closer look

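Of 108 groups of 4 arrays (12 member probes in 9 groups), 2 held an array far from the other 3 (its gap to the nearest, over the group's range, passed Dixon's critical value); chance alone would mark about 1 in 20 such groups. Both were arrays of replicate 2 and both were probes of H2-Ab1, on the low side. ILMN_2631423 read 9.17 on KO 0 h replicate 2, where the nearest of the others was 9.94. ILMN_2913716 read 8.53 on het 0 h replicate 2, where the nearest was 9.97. Replicate 2 was also the lowest array of those groups for H2-Eb1 and for the brightest Cd74 probe. The low arrays of PM replicate 4 for ILMN_2631423 and H2-DMb2 are described with the results.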

How the results depend on the processing

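At 4 h, 5, 3 and 3 probes other than H2-DMa passed in het, PM and KO. With array weights het gave 3 and KO 5. With the replicate block het gave 9, PM 8 and KO 8, and PM against het at 4 h gave 1 in place of 0. The same-numbered arrays of PM and of KO at 0 and 4 h did not all correlate above 0.1. Both Cd74 probes passed with the block in PM (limma, adjusted p = 0.0028 and 0.0093) and in KO (limma, adjusted p = 0.0017 and 0.00073). The block changed no other count. At 1 h the het count was 0 in place of 1 with median scaling, without the filter, with array weights, with replicates 1 to 3 only and with only the groups compared, and the PM count was 0 in place of 1 with the authors' table, with median scaling, without the filter and with replicates 1 to 3 only. Without background correction, H2-DMa changed in het at 4 h by −1.36 less the 4 class II genes, in place of −2.05, and H2-DMa itself by −2.11, −1.66 and −1.78 in het, PM and KO. H2-Ab1 ILMN_2631423 in PM at 4 h turned from 0.16 to −0.056 without background correction, −0.60 with array weights and −0.60 with replicates 1 to 3 only. Leaving out single arrays gave 0 to 1 probes in het and in PM at 1 h, 3 to 5 in het, 1 to 3 in PM and 3 to 4 in KO at 4 h, the lowest without het 0 h replicate 3 or het 4 h replicate 2, and without PM 4 h replicate 2. Over the same sets, values that changed sign ran from −0.87 to 0.64 for ILMN_2631423 and −0.65 to 0.077 for ILMN_2913716 in PM at 4 h, and in KO at 4 h from −0.66 to 0.14 for H2-Aa, −0.86 to 0.033 for ILMN_1226525 and −0.65 to 0.13 for ILMN_2607675. Where not stated the cause was not tested. H2-DMa kept its direction, at −3.13 to −2.57 in het, −2.08 to −1.56 in PM and −2.52 to −2.0 in KO at 4 h and 2.09 to 2.68 for PM less het at 4 h. No slide is named in the files, so slide was not run as a block. Ciita and H2-DMb2 lie near the detection limit at 4 h, which limits the size of their fall.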
